A study of Mus musculus with 8 samples.

Results

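The genes described here are 9 components of insulin-like growth factor and insulin signalling: the receptors Igf1r, Igf2r and Insr, the adaptors Irs1 and Irs2, the phosphoinositide 3-kinase (PI3K) subunits Pik3cd and Pik3r1, the kinase Akt1 and the transcription factor Foxo3. They were found by gene symbol in the platform annotation, and each gene was represented by its brightest probe set, judged by the mean of the 8 arrays, so that they are 9 of the 19938 genes measured. RNA of flow-sorted bone marrow cells of C57BL/6J mice was hybridised to 8 Affymetrix arrays, each holding an independent RNA preparation pooled from 4 or 6 mice. The 4 groups were KLS cells of mice of the genotype ∆Hmga2 (titled TG), KLS cells of wildtype mice (WT), MEP cells of ∆Hmga2 mice and MEP cells of wildtype mice, with 2 arrays in each. The KLS gate takes marrow cells that carry c-Kit and Sca-1 but no lineage antigens, among them the stem cells, and MEP stands for the common progenitors of megakaryocytes and red cells. The series is titled as one of HMGA2 overexpression, and the sources used here give neither the promoter of the transgene and the number of founder lines nor the age and sex of the mice.

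In this pathway, IGF1, IGF2 or insulin binds a receptor tyrosine kinase at the cell surface, and the activated receptor phosphorylates insulin receptor substrate proteins. These recruit PI3K, whose lipid product brings AKT to the membrane. AKT then phosphorylates FOXO factors, which leave the nucleus, so that signalling lowers the transcription of FOXO target genes. In blood formation the pathway is known for its control of stem cell quiescence, with FOXO factors protecting the stem cell pool, and HMGA2 is known in other tissues for activating Igf2bp2, which encodes an IGF2 mRNA-binding protein.

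Igf1r and Igf2r had the lowest p-values of the 9 genes, in opposite directions, in the comparison of KLS with MEP cells, and their promoter windows are shown for that reason. RefSeq windows of GRCm38.p6, running from 250 bases before to 50 bases after an annotated transcript start, matched 8 of the 9 genes in 12 windows. Capitals mark the GC box GGGCGG and the E-box CACGTG, searched on both strands, with the sequence given 5′ to 3′ on the strand of the gene. The Igf1r window lies at chr7:67952007-67952306 on the plus strand and the Igf2r window at chr17:12769657-12769956 on the minus strand.
Igf1r: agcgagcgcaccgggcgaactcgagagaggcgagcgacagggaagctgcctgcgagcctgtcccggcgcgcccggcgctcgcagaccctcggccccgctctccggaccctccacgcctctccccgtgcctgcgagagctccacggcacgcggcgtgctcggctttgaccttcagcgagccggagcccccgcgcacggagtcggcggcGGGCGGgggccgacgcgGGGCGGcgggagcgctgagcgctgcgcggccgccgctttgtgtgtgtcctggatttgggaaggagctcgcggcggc
Igf2r: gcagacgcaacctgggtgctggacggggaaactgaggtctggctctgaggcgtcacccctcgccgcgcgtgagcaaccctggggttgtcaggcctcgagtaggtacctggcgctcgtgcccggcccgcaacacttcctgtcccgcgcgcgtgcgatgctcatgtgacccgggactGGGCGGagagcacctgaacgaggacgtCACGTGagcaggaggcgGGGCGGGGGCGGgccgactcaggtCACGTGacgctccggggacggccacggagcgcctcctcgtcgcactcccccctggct
The Igf1r window held 2 GC boxes and 0 E-boxes, whereas the Igf2r window held 3 GC boxes and 2 E-boxes. A GC box stood in 9 of the 12 windows of these genes, against 35.7% of 32851 mouse windows of the same length. An E-box stood in 3 of the 12 windows, those of Igf2r, Irs1 and Irs2, against 7.15% of all windows. The FOXO motif TGTTTAC stood in 1 of the 12, a window of Akt1, against 3.65% of all windows. These are letter matches in sequence and were not tested against expression.

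Between the 2 arrays of a group, 122 genes lay over 2-fold apart in TG KLS, 223 in WT KLS, 111 in TG MEP and 421 in WT MEP cells. Hmga2, measured by 1 probe set, had log2 levels of 7.35 and 7.11 in TG KLS and 6.85 and 7.12 in WT KLS cells, and of 6.95 and 6.99 in TG MEP and 6.70 and 6.74 in WT MEP cells. Its difference over both cell types was 0.25 ± 0.11 (TG minus WT, SE), and in limma the adjusted p was 0.999. The sources used here do not say whether that probe set reads the transgene. The markers followed the labels for KLS cells: the mean log2 level of 7 stem and multipotent progenitor genes was 8.30 to 8.58 on KLS and 6.63 to 7.34 on MEP arrays, and 5 of the 7 were called higher in KLS cells. Megakaryocyte-erythroid genes separated the cells less as a mean, with 8.60 to 8.74 on KLS and 8.66 to 8.80 on MEP arrays and 2 of 8 called lower in KLS cells. That mean joins genes that ran opposite ways. Gata1, Klf1, Epor, Tfrc, Car1 and Rhd averaged lower in KLS cells. Itga2b and Pf4 averaged higher there, with Pf4 at 6.96 to 8.24 on KLS and 5.37 to 7.14 on MEP arrays. Granulocyte and monocyte genes averaged 9.98 to 10.57 on KLS and 7.94 to 9.20 on MEP arrays, and 7 of the 12 were called higher in KLS cells. Ly6a, which encodes the surface antigen Sca-1, was not analysed here. The first WT MEP array stood apart from the other MEP arrays in markers of other cells. It lay above all 3 of them for 12 of 12 granulocyte and monocyte genes, with a mean of 9.20 against 7.94 to 8.58 on those arrays, and for 9 of 10 lymphoid genes, with a mean of 8.02 against 6.17 to 6.44. It also lay above them for 5 of 7 stem and progenitor genes and 2 of 6 stromal and endothelial genes. The KLS arrays also differed by replicate. Mpo read 12.94 and 12.79 on the first TG and WT KLS arrays, against 11.69 and 11.53 on the second. Elane, Ctsg, Prtn3, Ms4a3 and Csf1r were likewise higher on the first arrays of both genotypes. Camp, S100a8 and S100a9 were higher on the second arrays, and Ltf, Ngp and Cybb went opposite ways in the 2 genotypes. Whether this bears on the replicate gaps of the 9 genes was not tested. In sorted bulk samples, fewer cells of a type and less RNA per cell cannot be told apart.

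**Figure D1:**
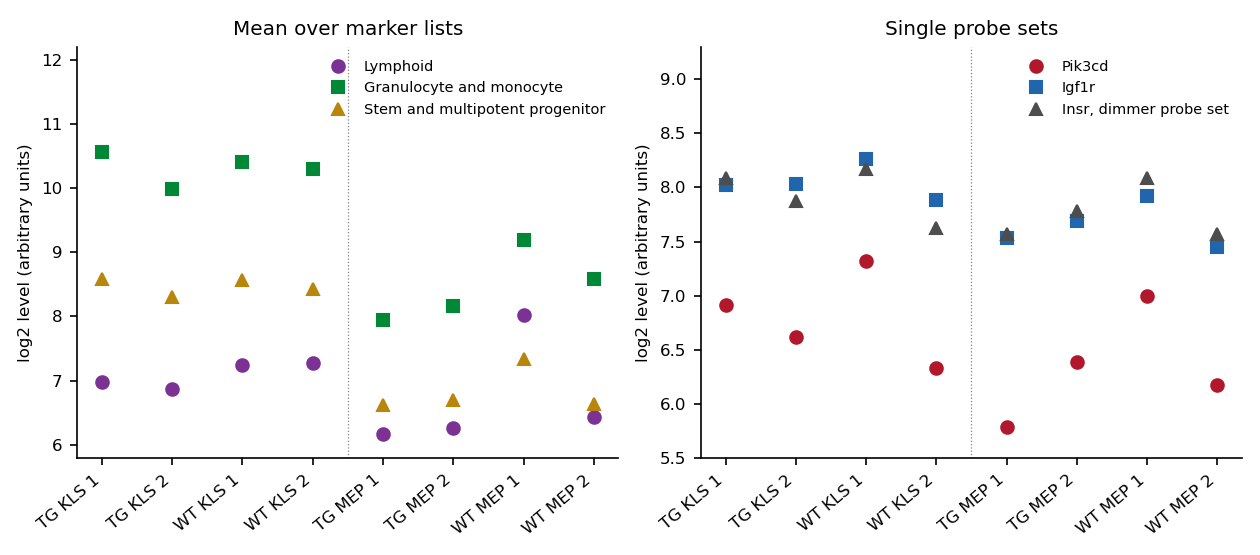
Left, mean log2 level per array of the lymphoid, the granulocyte and monocyte, and the stem and multipotent progenitor lists; right, log2 levels of Pik3cd, Igf1r and the dimmer of both Insr probe sets on the same 8 arrays. Each point is 1 array, and levels of different probe sets are not comparable. The first WT MEP array has granulocyte and monocyte markers at 9.20 and lymphoid markers at 8.02, above the other MEP arrays, and the highest Pik3cd level of the MEP arrays, 6.99. The probe sets shown were picked and do not stand for the 9 genes. Of these, 4 lay above the other MEP arrays there and 2, Igf2r and Foxo3, below, against 25.8% and 39.3% of all genes. The brighter Insr probe set read 9.57 on that array and 9.62 on the second WT MEP array.

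The first question is whether the receptors differed by genotype. Igf1r, the tyrosine kinase receptor for IGF1 and IGF2 (probe set 10554094), had log2 levels of 8.02 and 8.04 in TG KLS cells, against 8.26 and 7.89 in WT KLS cells. Its MEP levels were 7.54 and 7.69 in TG, against 7.93 and 7.45 in WT. In both cell types the TG values lay between the 2 WT values. TG minus WT was -0.042 ± 0.20 in KLS cells (SE, 95% interval -0.49 to 0.40) and -0.074 ± 0.20 in MEP cells (-0.52 to 0.37), and both adjusted p-values were 1 by limma. The KLS value was 0.053 when arrays were centred on their medians instead. The Igf1r difference in MEP cells was 0.16 without the first WT MEP array and -0.31 without the second, so its direction rested on which of them was kept.

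Between cell types, Igf1r averaged 8.05 ± 0.16 over 4 KLS arrays and 7.65 ± 0.21 over 4 MEP arrays (SD). Its KLS minus MEP difference was 0.40 ± 0.14 (SE, 95% interval 0.088 to 0.72). The unadjusted p was 0.0177 and the adjusted p over all genes 0.207 by limma, so the difference was not called. The arrays overlapped in 1 pair: the second WT KLS array, at 7.89, lay just below the first WT MEP array, at 7.93. Without the first WT MEP array the difference was 0.52, with an adjusted p of 0.0824, and without the second it was 0.28, with an adjusted p of 0.464. The granulocyte and monocyte markers differed between the same arrays, and their part in the differences between cell types was not tested.

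Igf2r, which carries IGF2 and mannose 6-phosphate-tagged proteins to lysosomes and does not signal through PI3K (probe set 10447799), read 7.25 and 7.53 in TG KLS cells, against 7.36 and 7.20 in WT KLS cells. The MEP levels were 7.81 and 7.79 in TG, against 7.37 and 7.86 in WT. The first WT MEP array was thus the low one among MEP arrays, whereas for Igf1r it was the high one. TG minus WT was 0.11 ± 0.19 in KLS and 0.19 ± 0.19 in MEP cells (SE), with adjusted p-values of 1 by limma. In MEP cells the Igf2r difference was -0.056 without the first WT MEP array and 0.43 without the second.

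The KLS arrays averaged 7.33 ± 0.15 for Igf2r and the MEP arrays 7.71 ± 0.22 (SD, 4 arrays each). KLS minus MEP was -0.37 ± 0.13 (SE, 95% interval -0.68 to -0.073). With an unadjusted p of 0.0204 and an adjusted p of 0.224 in limma, this difference was not called either. Of the 4 MEP arrays, 3 lay above every KLS array and the first WT MEP array lay inside the KLS range. Without it the difference was -0.50, with an adjusted p of 0.0763, and without the second WT MEP array it was -0.25, with an adjusted p of 0.482. Over the 8 arrays Igf1r and Igf2r ran opposite ways, with a Pearson r of -0.79, given as a description of arrays from both cell types.

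Insr, the insulin receptor, had the smallest spread of the 9 genes in its brighter probe set, the one used. The residual SD within groups was 0.103 there, and 16.6% of all genes had a smaller one. This probe set, 10576692, read 9.55 and 9.76 in TG KLS cells, against 9.56 and 9.75 in WT KLS cells. The means were 9.65 in TG and 9.66 in WT KLS cells, with a difference of -0.0020 and a 95% interval of -0.33 to 0.33, and of 0.10 with median centring. In MEP cells Insr read 9.46 and 9.42 in TG, against 9.57 and 9.62 in WT, so the arrays did not overlap and TG was lower. That difference was -0.15 ± 0.14 (SE), with an adjusted p of 1 in limma. The second Insr probe set, 10576696, read 7.57 and 7.78 in TG MEP cells, against 8.09 and 7.57 in WT MEP cells. It gave the same mean difference, -0.15 ± 0.23 (SE), but its arrays overlapped. Its replicates lay farther apart: the KLS arrays read 8.09 and 7.88 in TG, against 8.17 and 7.63 in WT. KLS minus MEP was 0.14 ± 0.10 in the first and 0.19 ± 0.16 in the second probe set (SE), and neither was called.

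**Figure D2:**
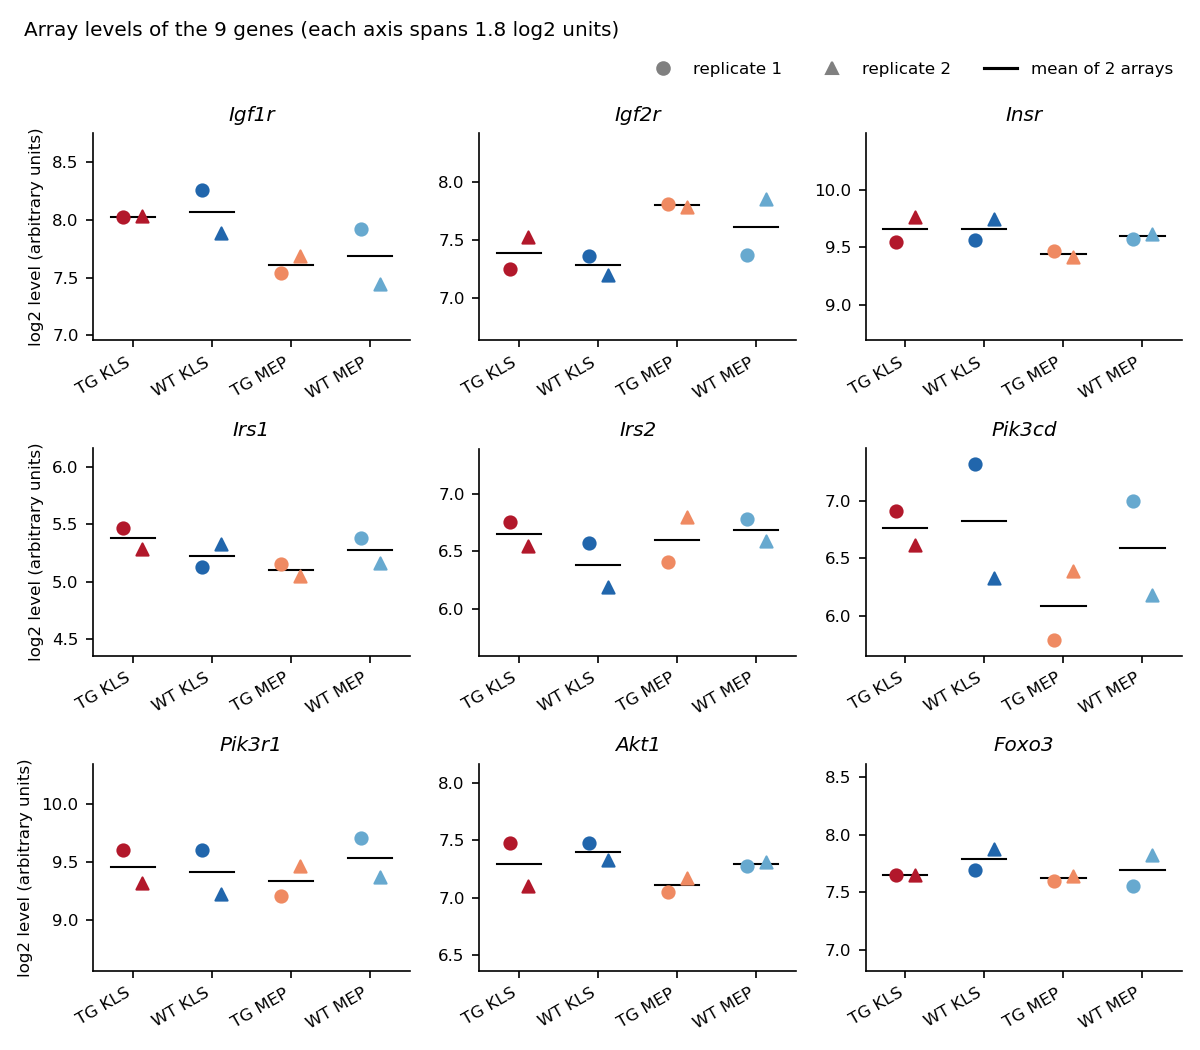
Quantile-normalised log2 level of each of the 9 genes on each of the 8 arrays; each point is 1 array, with a circle for replicate 1 and a triangle for replicate 2, and a black line marks the mean of the 2 arrays of a group. All panels span the same log2 range around different levels. Igf1r is lower and Igf2r higher on most MEP arrays, the Pik3cd points of a group lie up to 0.99 apart, and the Insr points of a group lie at most 0.21 apart.

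The adaptors carry the signal from receptor to PI3K. Irs1, the main adaptor of the IGF1 receptor in many tissues (probe set 10356084), was the only one of the 9 among the dimmest 30% of genes. It read 5.47 and 5.29 in TG KLS cells, against 5.13 and 5.32 in WT KLS cells, and these overlapped. Irs1 in MEP cells read 5.15 and 5.05 in TG, against 5.38 and 5.16 in WT, with both TG arrays below both WT arrays by a narrow margin. The genotype difference (TG minus WT) was 0.15 ± 0.15 in KLS cells and -0.17 ± 0.15 in MEP cells (SE). With 1 array left out, the Irs1 difference ran from 0.053 to 0.25 in KLS cells and from -0.28 to -0.064 in MEP cells, where -0.064 was the value without the first WT MEP array and -0.28 that without the second. The difference between these 2 changes was 0.32 ± 0.22, and its adjusted p was 1 by limma. A dimmer Irs1 probe set, 10347792, gave -0.10 ± 0.26 in KLS and -0.42 ± 0.26 in MEP cells (SE), so the probe sets differed in sign in KLS cells.

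Irs2, the adaptor that FOXO factors themselves induce in liver, read 6.76 and 6.55 in TG KLS cells, against 6.57 and 6.19 in WT KLS cells. The TG KLS mean was 6.65 ± 0.15 and the WT KLS mean 6.38 ± 0.27 (SD, n = 2 each). This was the largest genotype difference of the 9 genes in KLS cells, 0.27 ± 0.19 (SE, 95% interval -0.17 to 0.71), and its adjusted p was 1 in limma. It was 0.46 without the first WT KLS array and 0.081 without the second, where the Pik3cd difference, at -0.56, was further from 0. In MEP cells Irs2 read 6.40 and 6.79 in TG, against 6.78 and 6.59 in WT, a difference of -0.089 ± 0.19 (SE). For Irs1 and Irs2, KLS minus MEP was 0.12 ± 0.11 and -0.13 ± 0.14 (SE), with arrays overlapping in both.

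Pik3cd encodes the delta catalytic subunit of PI3K, which is concentrated in leukocytes. It varied more between replicates than any other of the 9 genes: its residual SD was 0.512, against a median of 0.168 over all genes, and 97.8% of genes had a smaller one. It read 6.91 and 6.61 in TG KLS cells, against 7.32 and 6.33 in WT KLS cells. In MEP cells it read 5.79 and 6.38 in TG, against 6.99 and 6.18 in WT. The replicates of WT KLS cells were thus 0.99 apart, farther than any 2 group means of Pik3cd. In both genotypes the first KLS array read higher than the second, as it did for Mpo. That order was not particular to Pik3cd: Irs2, Pik3r1 and Akt1 had it too. Insr and Foxo3 had the reverse order in both genotypes, and Igf1r, Igf2r and Irs1 went opposite ways in the genotypes.

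The largest genotype difference among the 9 genes was that of Pik3cd in MEP cells, -0.50 ± 0.37 (TG minus WT, SE), and its 95% interval of -1.33 to 0.33 included 0. By limma the adjusted p was 1. The value was -0.090 without the first WT MEP array and -0.91 without the second. On the first WT MEP array the granulocyte, monocyte and lymphoid markers were also high, as given above, and their part in this value was not tested. In KLS cells the Pik3cd difference was -0.060 ± 0.37 (SE), and it was 0.43 without the first WT KLS array and -0.56 without the second. Between cell types it was 0.46 ± 0.26 (KLS minus MEP, SE, 95% interval -0.13 to 1.05), with an adjusted p of 0.516 by limma.

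Pik3r1 encodes the alpha regulatory subunit, which binds phosphorylated adaptors and stabilises the catalytic subunit. It read 9.60 and 9.32 in TG KLS cells, against 9.60 and 9.22 in WT KLS cells. Levels in MEP cells were 9.20 and 9.46 in TG, against 9.70 and 9.37 in WT. All 4 groups overlapped, and the KLS mean of 9.44 ± 0.20 and the MEP mean of 9.43 ± 0.21 (SD, 4 arrays each) differed by 0.0013, with a 95% interval of -0.32 to 0.32, and by -0.11 with median centring. By genotype it differed (TG minus WT) by 0.048 ± 0.20 in KLS and -0.20 ± 0.20 in MEP cells (SE). The MEP value was -0.034 without the first WT MEP array and -0.37 without the second. As a description over 8 arrays that include both cell types, Pik3r1 and Pik3cd had a Pearson r of 0.84, and Pik3cd and Igf1r one of 0.87.

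Akt1, the kinase at the centre of the pathway, read 7.48 and 7.11 in TG KLS cells, against 7.47 and 7.33 in WT KLS cells. In MEP cells it read 7.05 and 7.17 in TG, against 7.28 and 7.31 in WT, so that both TG arrays lay below both WT arrays. The differences were -0.11 ± 0.16 in KLS and -0.18 ± 0.16 in MEP cells (TG minus WT, SE), and neither passed the test, each with an adjusted p of 1 by limma. Akt1 averaged 7.35 ± 0.18 in KLS and 7.20 ± 0.12 in MEP cells (SD, 4 arrays each), with overlapping arrays.

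Foxo3, a FOXO factor that AKT holds outside the nucleus and that is needed to maintain mouse haematopoietic stem cells, read 7.65 and 7.65 in TG KLS cells, against 7.69 and 7.88 in WT KLS cells. It was the 1 gene of the 9 whose KLS arrays did not overlap between genotypes, although the nearest TG and WT arrays were close. TG minus WT was -0.14 ± 0.15 in KLS cells (SE, 95% interval -0.48 to 0.20), with an adjusted p of 1 by limma, and -0.041 without the second WT KLS array. In MEP cells Foxo3 read 7.60 and 7.64 in TG, against 7.55 and 7.83 in WT, a difference of -0.069 ± 0.15 (SE). KLS minus MEP was 0.062 ± 0.11 (SE), and the arrays overlapped.

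**Figure D3:**
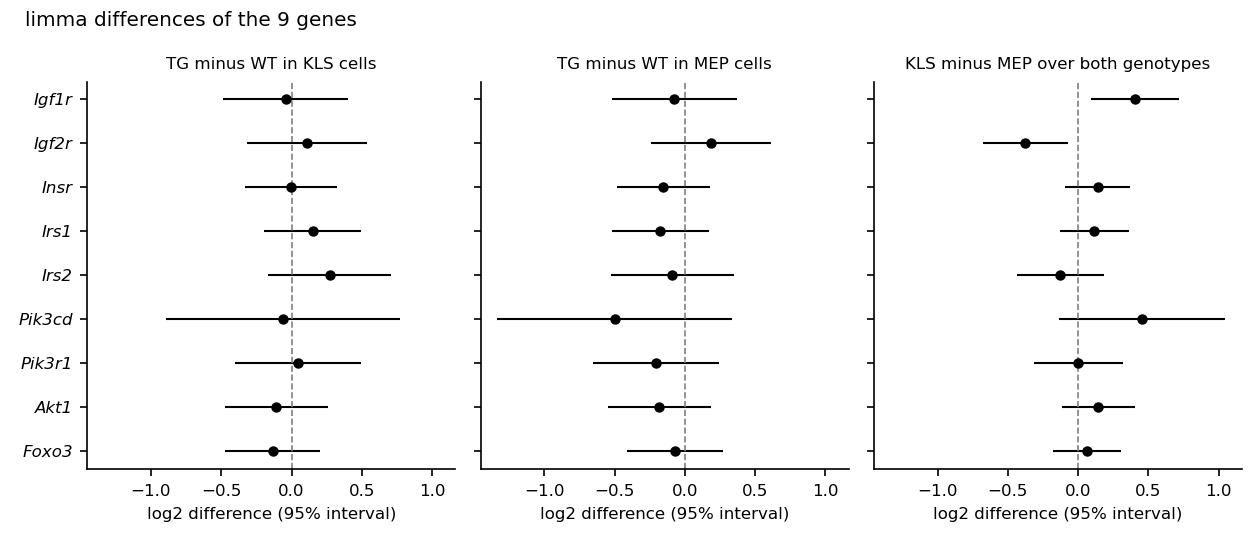
Log2 difference of each of the 9 genes for genotype (TG minus WT) within each cell type and for KLS minus MEP over both genotypes; points are limma estimates and bars are 95% intervals. All genotype intervals include 0, and the intervals of Igf1r (0.088 to 0.72) and Igf2r (-0.68 to -0.073) for KLS minus MEP do not.

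Counted together at an adjusted p under 0.05, limma called 0 of the 9 genes by genotype, whether within KLS cells, within MEP cells or over both, and 0 for the difference between the 2 genotype changes, where it called 0% of all 19938 genes in each. For KLS minus MEP it called 0 of the 9, against 1.60% of all genes. Ordinary least squares called 0 of all 19938 genes in each of the 5 contrasts, so its count of 0 of the 9 adds nothing on these genes. At an unadjusted p under 0.05, 0 of the 9 passed in KLS cells, against 2.51% of all genes, and 0 in MEP cells, against 3.71%. The same count was 0 over both cell types, against 3.26%, and 0 for the difference between the genotype changes, against 2.27%. For KLS minus MEP it was 2, Igf1r and Igf2r, against 14.3% of all genes.

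Non-overlap of the 2 TG and 2 WT arrays with TG lower was seen for 1 of the 9 genes in KLS cells (Foxo3), against 17.2% of all genes. In MEP cells it was seen for 3 of the 9 (Insr, Irs1 and Akt1), also against 17.2% of all genes. The 4 KLS and 4 MEP arrays separated fully for 0 of the 9, against 9.04% of all genes in either direction. In MEP cells 8 of the 9 genes had a difference below 0, with Igf2r the exception, and their median was -0.15, beside -0.0078 over all genes, of which 48.0% lay above 0. Without the first WT MEP array 7 of the 9 were below 0 and the median was -0.064, and without the first TG MEP array these were 6 and -0.073. In KLS cells 5 of the 9 lay below 0 and the median was -0.0020, beside -0.017 over all genes. That median was 0.072 with deposited values and 0.10 with median centring, with 3 of the 9 below 0 in each, and 0.14 without the first WT KLS array. For KLS minus MEP 7 of the 9 lay above 0, with a median of 0.12 beside 0.013.

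A wider list of 65 pathway genes, of which 60 were measured, was compared in the same fit. Igf2bp2 was among the 5 not analysed here. In every contrast 0 of the 60 were called, against the shares of all genes given above. At an unadjusted p under 0.05, 0 passed in KLS cells, against 2.51% of all genes, and 1 in MEP cells, against 3.71%. For KLS minus MEP 5 were higher and 2 lower, against 14.3% of all genes in either direction. The median difference of the list was -0.039 by genotype in KLS cells and -0.082 in MEP cells, and it was 0.041 for KLS minus MEP. Both genotype medians changed sign with the arrays used: the KLS median was 0.11 without the first WT KLS array, -0.14 without the second and 0.016 with median centring, and the MEP median was 0.015 without the first TG MEP array. By role, the 11 ligands and carriers all lay above 0 for KLS minus MEP, against 53.5% of all genes. They ran from 0.020 to 0.80, with a median of 0.11, and 8 of the 11 lay above 0 without the first TG MEP array. Their median was 0.048 without the first WT MEP array. Several of them were dim: Igfbp1 read 5.34 to 5.63 and Igfbp5 5.44 to 5.70, below the array medians of 6.34 to 6.45, whereas Igfbp4 read 6.44 to 7.89. The kinase group of 10 genes also holds Rptor, Rictor and Mlst8, which are mTOR complex subunits and not kinases, and the GTPase Rheb. In MEP cells all 10 lay below 0 by genotype, 1 of them at -0.00059, with a median of -0.15. Without the first TG MEP array 7 of the 10 did so, with a median of -0.073, and without the first WT MEP array 9 did, with a median of -0.058. Of the 9 brakes on the pathway 8 lay below 0 in MEP cells, with a median of -0.17, and 5 without the first TG MEP array, with a median of -0.041. In KLS cells 5 of the 10 genes of the kinase group and 5 of the 9 brakes lay below 0.

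Among the ligands, Igf1 read 6.45 and 5.86 in TG KLS cells, against 6.60 and 5.78 in WT KLS cells. The MEP arrays read 5.96 and 5.71 in TG, against 6.10 and 5.57 in WT. The groups overlapped in each cell type, and TG minus WT was -0.040 ± 0.31 in KLS and 0.0012 ± 0.31 in MEP cells (SE). Igf2 read 6.07 and 6.18 in TG KLS cells, against 6.29 and 6.53 in WT KLS cells. In MEP cells it read 6.23 and 6.23 in TG, against 6.07 and 6.11 in WT, so that TG lay below WT in KLS cells and above it in MEP cells. The differences were -0.28 ± 0.14 and 0.14 ± 0.14 (SE), and neither was called. All Igf2 levels lay near the array medians of 6.34 to 6.45. Of the IGF2 mRNA-binding proteins, Igf2bp1 and Igf2bp3 differed by 0.14 ± 0.15 and 0.18 ± 0.19 in KLS cells (TG minus WT, SE), each with an adjusted p of 1 by limma.

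Igfbp4, a secreted protein that binds IGFs and limits their access to the receptor, came nearest to the threshold of the 60 genes. It read 7.53 and 7.30 in TG KLS and 7.89 and 7.22 in WT KLS cells, against 6.85 and 6.44 in TG MEP and 6.86 and 6.58 in WT MEP cells. All 4 KLS arrays lay above all 4 MEP arrays. KLS minus MEP was 0.80 ± 0.17 (SE, 95% interval 0.41 to 1.19), with an adjusted p of 0.0553 by limma. With the dimmest 30% of genes left out, the adjusted p was 0.0488, and without the second WT KLS array it was 0.0384, so the call depended on such choices. By genotype Igfbp4 differed by -0.14 ± 0.24 in KLS cells (TG minus WT, SE).

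Of the genes near FOXO and AKT, Foxo1, a FOXO factor with a role in B-cell development, read 6.53 and 6.97 in TG MEP cells, against 7.78 and 7.01 in WT MEP cells. Its TG minus WT difference was -0.65 ± 0.25 (SE, 95% interval -1.21 to -0.080), and its unadjusted p of 0.0296 became an adjusted p of 1 in limma. The first WT MEP array held the highest value, 7.78, and without it the difference was -0.27. Sgk3, a kinase related to AKT, differed by 0.30 ± 0.13 in KLS and -0.12 ± 0.13 in MEP cells (TG minus WT, SE), with non-overlapping arrays in both. Gsk3a, a kinase that AKT inhibits, differed by -0.26 ± 0.10 over both cell types (TG minus WT, SE), with an adjusted p of 0.999 by limma.

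**Figure D4:**
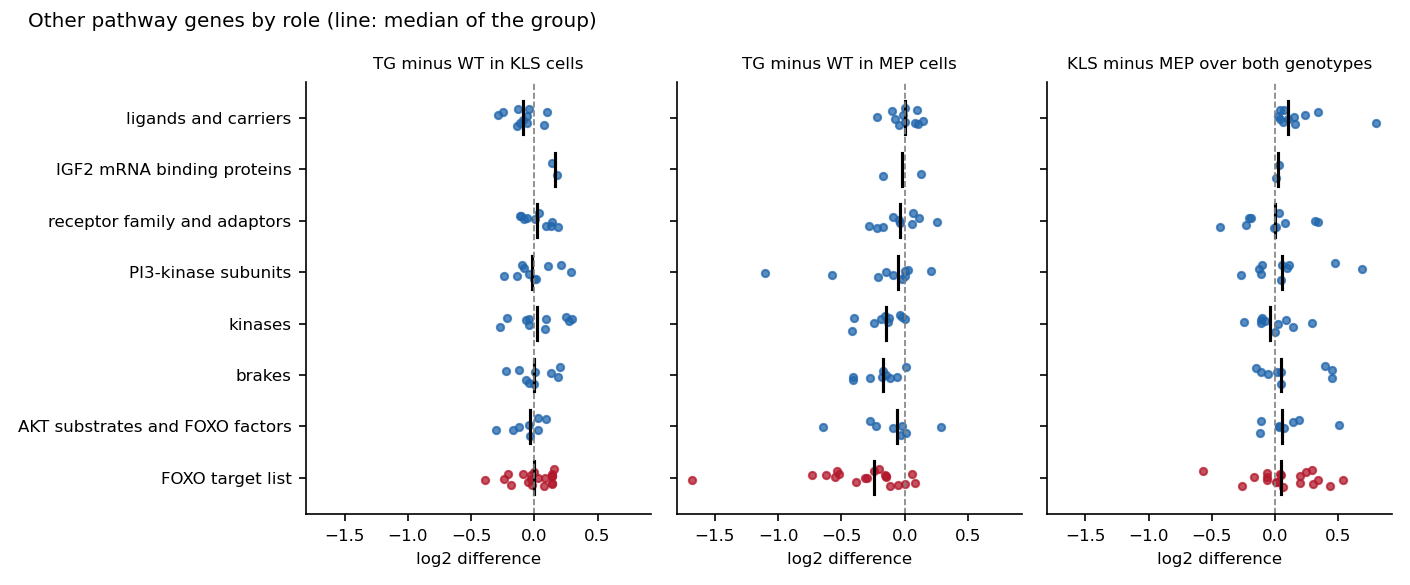
Log2 differences of 60 other pathway genes by role and of 19 FOXO target genes, for genotype (TG minus WT) within each cell type and for KLS minus MEP; each point is a gene and the black line is the median of its group. In MEP cells all 10 genes of the group labelled kinases, some of which are not kinases, lie below 0 (7 without the first TG MEP array). The FOXO target list has a median of -0.24 there (-0.026 without the first WT MEP array), and Igfbp4 is the point at 0.80 in the KLS minus MEP panel.

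FOXO activity is set by phosphorylation, which arrays do not measure, and its target genes were therefore listed as well. Of 20 listed targets 19 were measured, and 0 of them were called in any of the 5 contrasts, against the shares of all genes given above. In MEP cells 17 of the 19 lay below 0 by genotype, with a median of -0.24. Without the first WT MEP array 12 of the 19 did so and the median was -0.026, and without the second it was -0.38. In KLS cells 10 of the 19 lay below 0 and the median was -0.0012. Il7r, a target that is also a lymphoid marker, read 6.71 and 6.71 in TG MEP cells, against 9.96 and 6.82 in WT MEP cells, and the first WT MEP array alone stood above 6.82.

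Cat, which encodes the peroxide-degrading enzyme catalase, had the lowest p of the targets by genotype. It read 8.63 and 8.80 in TG MEP cells, against 9.42 and 9.12 in WT MEP cells. In KLS cells it read 9.10 and 8.80 in TG, against 9.19 and 9.14 in WT. Each TG array lay below each WT array of its cell type. TG minus WT was -0.55 ± 0.17 in MEP cells and -0.38 ± 0.12 over both cell types (SE), with adjusted p-values of 1 and 0.999 by limma. Klf2, a transcription factor that restrains lymphocyte proliferation, had the lowest p of the targets in KLS cells, at -0.39 ± 0.27 (TG minus WT, SE), with overlapping arrays. That value was -0.023 without the first TG KLS array and -0.76 without the second.

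Bcl2l11, which encodes the cell death inducer BIM, read 6.42 and 6.51 in TG KLS and 6.60 and 6.06 in WT KLS cells, against 6.81 and 7.08 in TG MEP and 6.82 and 7.18 in WT MEP cells. All KLS arrays lay below all MEP arrays. KLS minus MEP was -0.57 ± 0.15 (SE, 95% interval -0.91 to -0.23), with an adjusted p of 0.104 by limma, so it was not called.

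For each of the 9 genes, the 3 genes with the highest Pearson correlation over the 8 arrays are given as a description of these arrays, whose points share cell type, library and normalisation. For Igf1r they were Trafd1 (0.995), Galnt11 (0.984) and Thap3 (0.983). For Igf2r they were Sppl2a (0.989), B3galnt2 (0.987) and Zbtb46 (0.984). For Pik3cd they were Camk1d (0.991), Ptk2b (0.989) and Dhrs9 (0.983), and for Pik3r1 they were Ppp2ca (0.991), Crh (0.982) and Pdlim1 (0.973). None of these genes is on the wider pathway list. Akt1 was followed by Dnm2 (0.976), Sim2 (0.973) and Snx18 (0.970), and Foxo3 by Gchfr (0.967), Slc25a31 (0.957) and Magea6 (0.951). The nearest gene was Apobr for Insr (0.951), Iah1 for Irs1 (0.943) and Smyd5 for Irs2 (0.980), with Tmem52 (0.938) and Kcnmb4 (0.934), Il1r2 (0.941) and Retnlb (0.937), and Tmtc4 (0.977) and Prl7d1 (0.962) next in the same order.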

How the data were processed

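The deposited values are log2 levels of 35556 probe sets on 8 arrays. They were made with Affymetrix Expression Console, per the submitters' processing notes; the sources used here give no summarisation or normalisation method. Array medians spanned 0.106, so arrays were quantile normalised. Of the probe sets, 21789 had 1 gene symbol, 1621 had several and 12146 had no entry. Only the first kind was used, with the brightest probe set per gene, which left 19938 genes.

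A mean was fitted for each of 4 groups with limma 3.58.1 in R 4.3.3, with 4 residual and 4.82 prior degrees of freedom. All p-values are two-sided, with Benjamini-Hochberg adjustment across the 19938 genes and a threshold of 0.05. The procedure was tested on simulated data. Arrays have no read depth, and 2 per group limit the precision. The labels call the preparations independent.

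The members and lists were chosen with earlier results of these data known. Besides the 9 members, Hmga2, Igf1, Igf2 and Igf2bp2, the rule names, for each list and contrast, the gene with the smallest p where none passed, and for each member the 3 most correlated genes. Others (Igf2bp1, Igf2bp3 and Il7r) were named after their values were seen. Alternatives were deposited values, median centring, a filter on dim genes, the mean over probe sets, trended and robust variances, an adjusted p under 0.10, ordinary least squares, a replicate block, 1 cell type alone, and each array left out. Same-numbered arrays of different groups had deviations correlating from -0.284 to 0.385, over 0.1 in 3 of 6 pairs of groups, so the numbers were not taken to pair the samples. The highest value was that of TG KLS with WT KLS, the groups of the KLS genotype comparison, and all pairs with TG MEP were below 0. A difference shared by same-numbered KLS arrays was thus not removed in the main fit.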

Additional observations from a re-analysis of the deposited data

Results flagged for a closer look

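For 2 of the named genes the TG arrays moved opposite ways in the 2 cell types, with no overlap with the WT arrays in either. Of all 19938 genes, 2339 were higher and 3435 lower in TG without overlap in KLS cells, and 2592 and 3438 in MEP cells. How many did so in opposite directions was not counted. Sgk3 was named as the gene of the wider list with the smallest p for the difference between the genotype changes, so that p is one of a picked gene. For Sgk3 the TG minus WT difference was greater by 0.42 ± 0.19 (SE) in KLS than in MEP cells, with TG above WT in KLS cells and below it in MEP cells. For Igf2 the KLS difference minus the MEP difference was -0.43 ± 0.20 (SE), with TG below WT in KLS cells and above it in MEP cells. The difference itself was tested as an interaction term in limma, and neither gene passed, with adjusted p-values of 1 and unadjusted ones of 0.0527 and 0.063.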

How the results depend on the processing

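In all alternatives run, no member was called in any contrast that the fit held, including the replicate block, ordinary least squares and an adjusted p under 0.10. With dim genes left out 8 of the 9 were tested, without Irs1, and a fit of 1 cell type held 1 contrast. By genotype nearly all settings called 0 of all genes, so these counts say little about the members. For the wider list and the FOXO targets, the highest counts with 1 array left out are given below. They came from the fits that, among those without 1 array, also called the most of all genes. These list counts were not compared with shares of all genes, since 1 group then held only 1 array. Of the wider pathway list, Igfbp4 (0.80, KLS minus MEP) was the 1 gene called at an adjusted p under 0.10, with dim genes left out and with the replicate block (adjusted p 0.0139), which changed no other call among the lists. With 1 array left out, the wider list had 0 to 3 calls for KLS minus MEP (3 without the first WT MEP array) and 0 to 1 in MEP cells and over both cell types (1 without the second WT MEP array). FOXO targets had 0 to 4 for KLS minus MEP (4 without the first WT MEP array), 0 to 2 in MEP cells and 0 to 1 over both cell types and for the interaction (the highest without the second WT MEP array). Over all genes, calls for KLS minus MEP numbered 319, against 780 at an adjusted p under 0.10, 123 with median centring, 562 with the replicate block, 0 by ordinary least squares (2391 at an unadjusted p under 0.05) and 1 to 738 with 1 array left out. Without the second WT MEP array, 144 genes were called in MEP cells, 67 over both cell types and 10 for the interaction.

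Small differences changed sign, always without a call. With median centring and with deposited values, in that order, TG minus WT in KLS cells was 0.053 and 0.022 for Igf1r and 0.10 and 0.072 for Insr (0.040 with the mean of its probe sets). Over both cell types it was 0.052 and 0.050 for Irs1, and 0.0015 for Igf1 with median centring. The interaction was 0.14 and 0.081 for Foxo3, 0.068 and 0.010 for Igf2r and 0.093 and 0.036 for Hmga2. KLS minus MEP was -0.11 and -0.080 for Pik3r1.

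With 1 array left out, TG minus WT in KLS cells ran from -0.30 to 0.079 for Akt1, -0.23 to 0.14 for Igf1r, -0.033 to 0.25 for Igf2r, -0.11 to 0.11 for Insr, -0.56 to 0.43 for Pik3cd, -0.14 to 0.24 for Pik3r1 and -0.45 to 0.37 for Igf1. In MEP cells it ran from -0.21 to 0.068 for Foxo3, -0.31 to 0.16 for Igf1r, -0.056 to 0.43 for Igf2r, -0.28 to 0.11 for Irs2 and -0.27 to 0.27 for Igf1. Over both cell types it ran from -0.18 to 0.061 for Igf1r, -0.067 to 0.043 for Irs1, -0.0062 to 0.19 for Irs2, -0.17 to 0.017 for Pik3r1 and -0.23 to 0.19 for Igf1. The interaction ran from -0.11 to 0.26 for Akt1, -0.20 to 0.071 for Foxo3, -0.21 to 0.27 for Igf1r, -0.32 to 0.16 for Igf2r, -0.056 to 0.93 for Pik3cd, -0.13 to 0.13 for Hmga2 and -0.45 to 0.37 for Igf1. KLS minus MEP ran from -0.0063 to 0.13 for Foxo3 and -0.093 to 0.096 for Pik3r1. The cause of these changes was not tested; a fit without 1 array assumes that the lone array of a group varies like the other groups.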
